A study of Mus musculus with 10 samples.

Results

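Coagulation and fibrinolysis proteins were examined in mouse liver after CCl4 or oil. The set was a list of 32 genes that encode clotting factors, anticoagulants and proteins of fibrin breakdown. A gene was measured where a probe set of the array carried its symbol alone, and where a gene had several such probe sets the brightest over all 10 arrays stood for it. This gave 29 of the 32 genes, of 14860 genes with a probe set of their own. Klkb1, plasma prekallikrein, shared its probe set with Cyp4v3 and was not used, and F9 and Cpb2 were not analysed here. The 29 genes comprised 22 that hepatocytes make and 7 that vascular or other cells make.

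The livers came from male Balb/c mice that were 8 weeks old when obtained. In the first group, 5 mice received CCl4 for 6 weeks, a hepatotoxin that hepatocytes convert to a radical and that produces fibrosis on repeated dosing. In the other group, 5 mice received oil, the vehicle, for 6 weeks. Each array held the RNA of 1 liver, and the mice carried no genetic change that the labels mention.

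Clotting runs as a chain of serine proteases that ends with thrombin, which cuts soluble fibrinogen into fibrin. Tissue factor on cells outside the blood starts the chain, protein cofactors speed it, and antithrombin, the protein C system and tissue factor pathway inhibitor hold it back, while plasmin dissolves the fibrin. Hepatocytes secrete most of the soluble proteins, so plasma levels of clotting factors are used in the clinic as a measure of liver function. Endothelial cells carry or secrete thrombomodulin, the protein C receptor, von Willebrand factor and factor VIII, and factor XIII A comes from cells of the myeloid line.

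Values are the deposited log2 expression values, so a difference of 1 is a doubling of signal, and errors are SDs over 5 livers for a level and SEs of the limma fit for a difference. Array medians lay between 2.54 and 2.66. Hepatocyte markers were at like levels in both groups. The mean of 5 measured genes, among them Alb (albumin) and Ttr (transthyretin), was 12.39 to 12.52 over CCl4 livers and 12.41 to 12.48 over oil livers, and 0 of 5 passed the test. Markers of stellate cells and fibroblasts were higher, with 5 of 8 past the threshold and list means of 6.58 to 7.79 over CCl4 livers against 5.03 to 5.79 over oil livers. For macrophage markers 3 of 7 passed, with list means of 6.14 to 7.72 against 5.09 to 5.45. CCl4 replicate 4 received the lowest array quality weight, 0.459. Whole liver RNA was measured, so that fewer cells of a type and less RNA per cell cannot be told apart.

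The hepatocyte clotting genes of CCl4 livers lay close to those of oil livers. Of the 22, 11 had a positive and 11 a negative difference, with a median of 0.00, and 19 differed by less than 0.25 on the log2 scale. The exceptions were F11 and Hgfac, which were lower, and Pros1, which was higher. These were also the dimmest of the 22, at percentiles 95.2, 95.5 and 89.7 of all probe sets. The next, F7, was at 96.3. Fga, Fgb, Fgg and Vtn had group means of 11.92 to 12.53, where the largest value of the arrays was 13.4. Whether signal this high compresses differences was not tested. The 7 vascular and other genes all had positive differences, with a median of 0.14 and a range from 0.03 (F3) to 1.38 (F13a1). With median centring F3, F8 and Procr were negative, at -0.033, -0.0026 and -0.017. The median of all 23332 probe sets was 0.01, 12149 of them had positive differences, and 76.7% of them differed by less than 0.25.

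After Benjamini-Hochberg adjustment over all probe sets, 0 of the 29 genes passed the limma threshold of 0.05 in either direction, where 0.63% of all probe sets were higher and 0.09% were lower. At an unadjusted limma p under 0.05, 3 genes were higher (Pros1, F13a1 and Tfpi), or 10.3%, where 7.03% of all probe sets were. At the same threshold 2 were lower (F11 and Hgfac), or 6.90%, where 4.27% of all probe sets were. At the threshold of the study's methods, an unadjusted p under 0.05 with a fold above 1.6, 1 gene was higher (F13a1; 2.56% of all probe sets) and 1 was lower (F11; 0.819%). The arrays of both groups did not overlap for F13a1 and Vwf, higher in CCl4 livers (2.73% of all probe sets), and for Hgfac, lower in CCl4 livers (1.16%). These shares rest on single genes and do not set the list apart from the rest of the array.

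**Figure D1:**
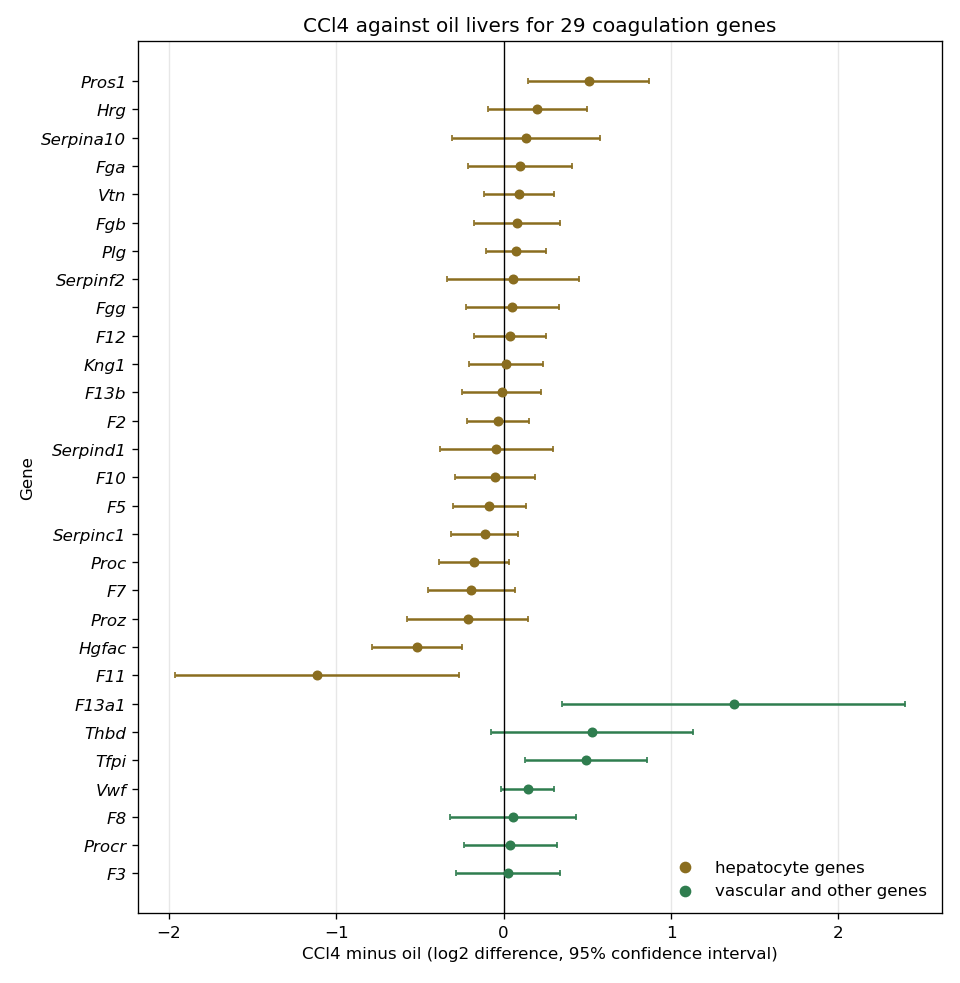
Difference between CCl4 and oil livers (x axis, log2, points with 95% confidence intervals, n = 5 livers per group) for each of 29 coagulation genes (y axis), hepatocyte genes in brown and vascular and other genes in green. Most hepatocyte genes cluster around 0, F11 at -1.12 and Hgfac at -0.52 lie to the left, and Pros1 at 0.51, Tfpi at 0.49 and F13a1 at 1.38 have intervals wholly above 0.

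The 3 fibrinogen chains overlapped between the groups and differed by 0.10 or less. Fga, Fgb and Fgg encode the Aα, Bβ and γ chains, which assemble in the hepatocyte and form the clot once thrombin has cut them. They lie within 42.1 kb of chromosome 3 (GRCm38.p6), Fgg and Fga on the plus strand and Fgb on the minus strand. Fibrinogen is a textbook acute phase protein, transcribed under IL-6 through STAT3 and under the hepatocyte factor HNF1. The 250 bases before each annotated start are shown because all 3 chains were lowest in the same 2 oil livers. Capitals mark a match, on either strand, to any of 4 short motifs. The letters GTTAAT are the core of the site that HNF1 binds in hepatocyte genes. For the STAT factors, which carry the signal of IL-6, the letters searched were TTCNNNGAA on both strands of each window. The type II IL-6 response element of acute phase genes was searched as CTGGGAA in the same windows. The TATA box, at which transcription of some genes starts, was searched as TATAAA. In the windows shown, matches to different motifs did not overlap.
Fga, chr3:83025903-83026152, plus strand: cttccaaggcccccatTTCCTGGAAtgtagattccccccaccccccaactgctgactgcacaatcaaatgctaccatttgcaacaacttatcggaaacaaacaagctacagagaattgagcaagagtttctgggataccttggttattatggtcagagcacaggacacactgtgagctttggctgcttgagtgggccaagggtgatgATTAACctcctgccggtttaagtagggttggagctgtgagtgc
Fgb, chr3:83049864-83050113, minus strand: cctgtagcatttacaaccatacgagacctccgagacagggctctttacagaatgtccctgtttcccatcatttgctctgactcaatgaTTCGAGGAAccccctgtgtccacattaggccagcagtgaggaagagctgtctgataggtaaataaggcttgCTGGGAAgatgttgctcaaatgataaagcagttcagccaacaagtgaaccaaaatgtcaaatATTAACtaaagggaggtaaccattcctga
Fgg, chr3:83007474-83007723, plus strand: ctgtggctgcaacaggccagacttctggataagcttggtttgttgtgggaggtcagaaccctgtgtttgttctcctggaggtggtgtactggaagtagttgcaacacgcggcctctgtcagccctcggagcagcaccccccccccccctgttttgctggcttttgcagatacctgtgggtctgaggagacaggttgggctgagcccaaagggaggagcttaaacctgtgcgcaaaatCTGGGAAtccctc

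In these windows Fga held the HNF1 core 43 bases and the STAT site 234 bases before the start. Fgb held all 3 of the factor motifs, the HNF1 core at 29, the IL-6 element at 91 and the STAT site at 162 bases. Fgg held the IL-6 element alone, at 13 bases. Among 32851 RefSeq windows of the same length, 6.43% held the HNF1 core, 7.02% the STAT site, 9.10% the IL-6 element and 12.4% the TATA box. Of 18 hepatocyte genes of the set with a window, 6, 4, 2 and 1 held them in that order. A match of letters does not show that a factor binds.

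Fga was 12.13, 12.44, 12.10, 11.97 and 12.11 in CCl4 replicates 1 to 5 and 11.64, 11.92, 12.32, 12.26 and 12.14 in oil replicates 1 to 5. The groups overlapped, and the lowest levels were those of oil replicates 1 and 2. The difference was 0.10 ± 0.14 (SE), with a 95% confidence interval from -0.21 to 0.41 and a limma adjusted p of 0.880.

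Fgb was 11.89, 12.17, 11.91, 12.10 and 11.95 in CCl4 livers and 11.66, 11.75, 12.14, 12.15 and 11.93 in oil livers, a difference of 0.08 ± 0.12 (SE). Fgg was 12.15, 12.36, 12.14, 12.12 and 12.10 against 11.80, 11.89, 12.38, 12.34 and 12.19, a difference of 0.05 ± 0.13 (SE). Both overlapped between groups, with oil replicates 1 and 2 again lowest. The confidence intervals, -0.18 to 0.34 for Fgb and -0.23 to 0.33 for Fgg, reach past the SD of the oil livers on the upper side (0.22 and 0.26) and include 0. The sign of Fga turned without oil replicate 1, and that of Fgg with median centring and without oil replicate 1 or 2.

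Next came the serine proteases that depend on vitamin K, the cofactor of the carboxylase that adds the carboxyl groups they need to bind membranes. F2, which encodes prothrombin, was 10.53, 10.55, 10.56, 10.48 and 10.59 in CCl4 livers and 10.41, 10.55, 10.81, 10.57 and 10.52 in oil livers. The CCl4 livers lay within a narrow band (SD 0.04) inside the range of the oil livers (SD 0.15). The difference was -0.03 ± 0.08 (SE), with a confidence interval from -0.22 to 0.15 and a limma adjusted p of 0.938. Its sign turned without oil replicate 3.

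F7 (factor VII, the partner of tissue factor) differed by -0.19 and F10 (factor X, which activates prothrombin) by -0.05, with limma adjusted p of 0.599 and 0.924. F7, F10 and Proz (protein Z, a cofactor in the inhibition of factor Xa) are neighbours on chromosome 8, in that order. All 3 had their lowest level of the 10 livers in CCl4 replicate 4, at 8.19, 9.67 and 8.33. Without that liver the F10 difference was 0.02 rather than -0.05 and the F7 difference -0.11 rather than -0.19. The cofactor F5 (factor V) differed by -0.09, and F13b, the carrier subunit of factor XIII, by -0.01.

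The contact system starts clotting on negatively charged surfaces, with F12 (factor XII) activating F11 (factor XI) and Kng1 (high molecular weight kininogen) as cofactor. F11 had the lowest difference of the 29 genes. It was 8.41, 8.24, 7.25, 6.59 and 8.22 in CCl4 replicates 1 to 5 and 8.98, 7.88, 9.13, 9.25 and 9.04 in oil replicates 1 to 5. All CCl4 livers lay below 4 of the 5 oil livers, and oil replicate 2 fell among them. CCl4 replicates 3 and 4 lay lowest.

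The means of F11 were 7.74 ± 0.79 (SD, n = 5) in CCl4 and 8.86 ± 0.55 (SD, n = 5) in oil livers. The difference was -1.12 ± 0.38 (SE), with a confidence interval from -1.97 to -0.27 and a limma adjusted p of 0.268, not past the threshold. With 1 liver left out it lay between -1.36 and -0.83. For the other measured genes of the contact system the values were near 0, with F12 at 0.04 ± 0.10 (SE) and Kng1 at 0.01 ± 0.10 (SE), and the signs of both turned with median centring. The mouse has a second kininogen gene close in sequence, so the Kng1 probe set may not separate them.

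**Figure D2:**
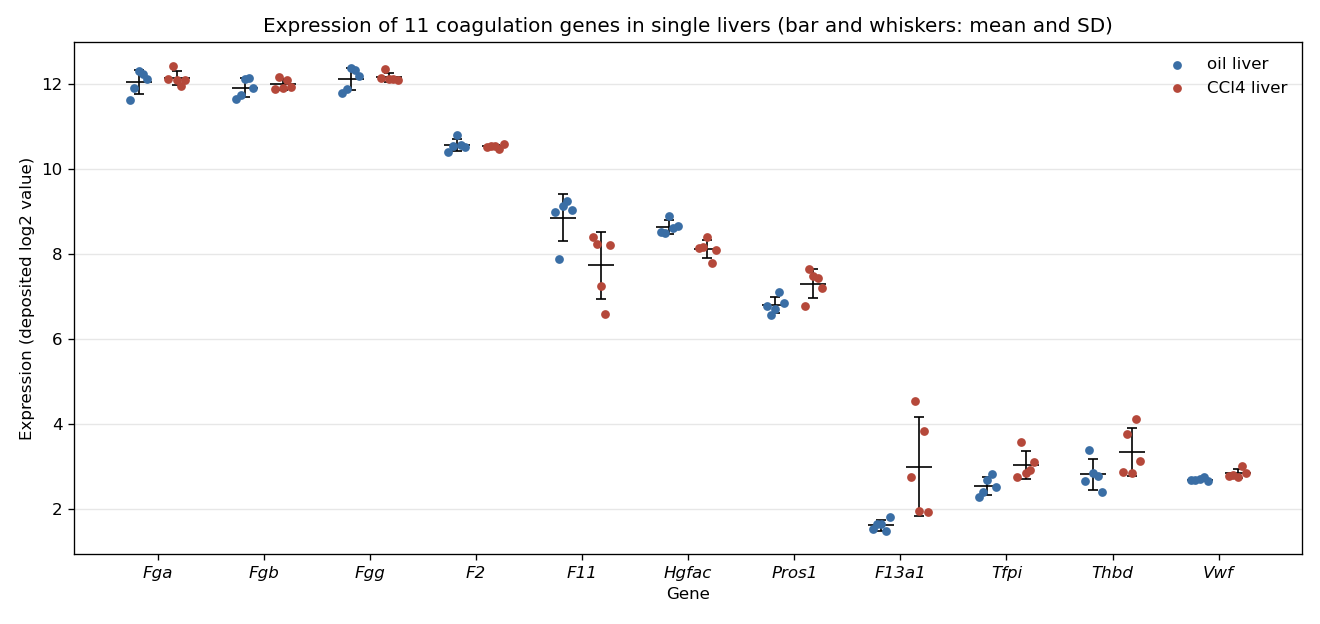
Expression of 11 coagulation genes (x axis) as deposited log2 values (y axis), 1 point per liver, oil in blue and CCl4 in red, with mean and SD over 5 livers. Fibrinogen chains and F2 overlap between groups, Hgfac is lower in all CCl4 livers, and F13a1 spreads from 1.91 to 4.53 in CCl4 livers against 1.48 to 1.81 in oil livers.

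Among the anticoagulants of the hepatocyte, Pros1 stood apart. It encodes protein S, the cofactor of activated protein C, which also binds the receptors by which phagocytes clear dying cells. Hepatocytes are its main source in plasma, but endothelial and other cells make it too. Pros1 was 6.78, 7.65, 7.47, 7.43 and 7.20 in CCl4 livers and 6.77, 6.57, 6.72, 7.10 and 6.84 in oil livers. CCl4 replicates 2 to 5 lay above every oil liver, and CCl4 replicate 1 was at the level of the oil livers.

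The means of Pros1 were 7.31 ± 0.33 (SD, n = 5) and 6.80 ± 0.19 (SD, n = 5). The difference was 0.51 ± 0.16 (SE), a 1.42-fold level, with a confidence interval from 0.15 to 0.87 and a limma adjusted p of 0.223. Over 18 alternatives it lay between 0.42 and 0.64 with adjusted p from 0.0795 to 0.415. The 250 bases before its start are shown for comparison with the fibrinogen genes, with the same motifs in capitals. The 1 match was a STAT site 92 bases before the start.
Pros1, chr16:62854057-62854306, plus strand (GRCm38.p6): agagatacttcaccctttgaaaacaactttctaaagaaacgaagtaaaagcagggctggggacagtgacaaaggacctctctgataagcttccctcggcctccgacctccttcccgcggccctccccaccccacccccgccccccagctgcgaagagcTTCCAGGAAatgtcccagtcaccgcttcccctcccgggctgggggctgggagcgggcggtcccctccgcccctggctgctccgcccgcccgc

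The partner of protein S, Proc (protein C), was at -0.18 ± 0.09 (SE), with a confidence interval from -0.38 to 0.03 (limma adjusted p = 0.541). Serpinc1 (antithrombin, the main inhibitor of thrombin) was at -0.11 (-0.06 without oil replicate 3), Serpind1 (heparin cofactor II) at -0.04 and Proz at -0.22. Serpina10, the protein Z-dependent protease inhibitor, was at 0.13. Their limma adjusted p lay between 0.703 and 0.960. Serpina10 was 10.11, 10.43, 10.21, 9.24 and 10.04 in CCl4 livers against 9.67 to 10.12 in oil livers, so that CCl4 replicate 4 was the lowest of all livers and replicate 2 the highest. Without replicate 4 the difference was 0.32, and without replicate 2 it was 0.03. Without CCl4 replicate 4 the difference of Proc was -0.11 and that of Proz -0.06.

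The genes of fibrin breakdown differed by 0.20 or less. Plg (plasminogen, the precursor of plasmin) was at 0.07 ± 0.08 (SE), with a confidence interval from -0.11 to 0.25, and Serpinf2 (α2-antiplasmin, its inhibitor) at 0.05 ± 0.18 (SE), with an interval from -0.34 to 0.45. Vtn (vitronectin, which stabilises plasminogen activator inhibitor) was at 0.09 and Hrg (histidine-rich glycoprotein, which binds heparin and plasminogen) at 0.20. The highest Hrg level, 11.14, was that of CCl4 replicate 4, without which the difference was 0.12.

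Hgfac encodes a secreted serine protease related to factor XII, which thrombin activates and which in turn activates hepatocyte growth factor. It had the lowest adjusted p of the 29 genes. Hgfac was 8.14, 8.18, 8.40, 7.78 and 8.10 in CCl4 replicates 1 to 5 and 8.53, 8.49, 8.89, 8.62 and 8.66 in oil replicates 1 to 5. The highest CCl4 liver, 8.40, lay just below the lowest oil liver, 8.49.

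The means of Hgfac were 8.12 ± 0.22 (SD, n = 5) and 8.64 ± 0.16 (SD, n = 5). The difference was -0.52 ± 0.12 (SE), a 1.43-fold lower level, with a confidence interval from -0.79 to -0.25 and a limma adjusted p of 0.0960, which misses the threshold. Over the 18 alternatives the difference lay between -0.59 and -0.43, with adjusted p from 0.0640 to 0.222. The window before its start held the STAT site at 167 bases and the HNF1 core at 8 bases.
Hgfac, chr5:35041259-35041508, plus strand (GRCm38.p6): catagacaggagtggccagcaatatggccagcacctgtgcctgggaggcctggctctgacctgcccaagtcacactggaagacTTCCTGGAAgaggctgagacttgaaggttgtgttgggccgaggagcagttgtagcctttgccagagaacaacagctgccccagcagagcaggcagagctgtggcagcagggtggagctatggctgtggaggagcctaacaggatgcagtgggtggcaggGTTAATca

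The genes of vascular and other cells gave weaker signals, and 6 of the 7 probe sets, all but that of F8, had group means between 1.62 and 3.34, where the median of all probe sets was 2.58. Array signal near background compresses differences, so small changes of these genes may be understated. F13a1, the catalytic subunit of the factor XIII transglutaminase that crosslinks fibrin, was 2.75, 4.53, 1.94, 3.82 and 1.91 in CCl4 replicates 1 to 5. It was 1.52, 1.63, 1.65, 1.48 and 1.81 in oil replicates 1 to 5. Every CCl4 liver lay above every oil liver, but replicates 3 and 5 by little.

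The means of F13a1 were 2.99 ± 1.16 (SD, n = 5) and 1.62 ± 0.13 (SD, n = 5). The difference was 1.38 ± 0.46 (SE), with a confidence interval from 0.35 to 2.40 and a limma adjusted p of 0.253. Without CCl4 replicate 2 it was 0.99. The fit assumes 1 spread for both groups, which these SDs do not share. Of 7 macrophage markers, 4 (Cd68, Adgre1, Gpnmb and Trem2) had their lowest CCl4 levels in replicates 3 and 5, as F13a1 had. Gpnmb was 9.54, 9.45, 7.70, 9.27 and 6.61 and Cd68 was 8.32, 8.73, 7.25, 8.25 and 6.45 in CCl4 replicates 1 to 5. The other 3 did not share this order: Clec4f was 6.73, 7.15, 8.02, 7.99 and 7.23, highest in replicate 3, and Mrc1 and C1qa were lowest in replicate 1. The part of these markers in the F13a1 result was not tested. The platelet and megakaryocyte markers were Pf4, Ppbp, Itga2b and Gp9, and 0 of 4 passed the threshold. Their list means were 2.11 to 2.49 over CCl4 and 2.01 to 2.24 over oil livers. Pf4 (2.46, 2.87, 1.84, 2.19 and 1.93) and Gp9 (2.34, 2.17, 1.34, 1.75 and 1.15) were also lowest in CCl4 replicates 3 and 5. Ppbp was lowest in CCl4 replicate 2 and Itga2b in CCl4 replicate 4. The 4 probe sets were dim, at percentiles 26.1 to 50.9, and their part in the F13a1 result was not tested either.

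Tfpi, the inhibitor of the tissue factor and factor VIIa complex, was 2.74, 3.57, 2.83, 2.91 and 3.09 in CCl4 livers and 2.28, 2.40, 2.68, 2.82 and 2.51 in oil livers. Only CCl4 replicate 1 fell below an oil liver, replicate 4. The difference was 0.49 ± 0.16 (SE), with a confidence interval from 0.12 to 0.86 and a limma adjusted p of 0.253.

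Thbd encodes thrombomodulin, which turns thrombin from a clotting enzyme into an activator of protein C. It was 2.86, 3.76, 2.83, 4.11 and 3.12 in CCl4 livers and 2.66, 3.38, 2.83, 2.77 and 2.40 in oil livers. The groups overlapped, and CCl4 replicates 2 and 4 were highest. The difference was 0.53 ± 0.27 (SE), with a confidence interval from -0.07 to 1.13 and a limma adjusted p of 0.518. Without CCl4 replicate 4 it was 0.33.

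Vwf, which encodes the von Willebrand factor that carries factor VIII and tethers platelets, was 2.78, 2.80, 2.75, 3.0 and 2.83 in CCl4 livers and 2.68, 2.68, 2.69, 2.74 and 2.65 in oil livers. The groups did not overlap in the deposited values, but oil replicate 4 (2.745) and CCl4 replicate 3 (2.747) lay next to each other. The medians of these arrays were 2.599 and 2.605, and overlap after centring was not examined. The difference was small, at 0.14 ± 0.07 (SE, confidence interval from -0.01 to 0.30, limma adjusted p = 0.497). It was 0.086 with median centring and 0.074 with quantile normalization. F8 (factor VIII, a cofactor made in the liver mainly by sinusoidal endothelium) was at 0.06 ± 0.17 (SE), Procr (the endothelial protein C receptor) at 0.04 ± 0.13 (SE) and F3 (tissue factor) at 0.03 ± 0.14 (SE). The signs of F8, Procr and F3 turned with median centring.

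Endothelial markers were measured beside these genes. Of 6 markers of vascular endothelium 0 passed, with list means of 5.04 to 5.65 over CCl4 livers and 4.77 to 5.38 over oil livers. Their differences ran from -0.15 (Kdr) to 0.64 (Pecam1, limma adjusted p = 0.220), and 5 of the 6, all but Kdr, were highest of the 10 livers in CCl4 replicate 4, as Thbd and Vwf were. Of 6 sinusoidal markers 0 passed, with list means of 6.56 to 7.84 against 6.43 to 7.04. Their differences ran from -0.01 (Stab2) to 2.14 (Lyve1, limma adjusted p = 0.213), and 5 of the 6, all but Gpr182, were highest in CCl4 replicate 4. Their part in the differences of Tfpi, Thbd and Vwf was not tested.

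**Figure D3:**
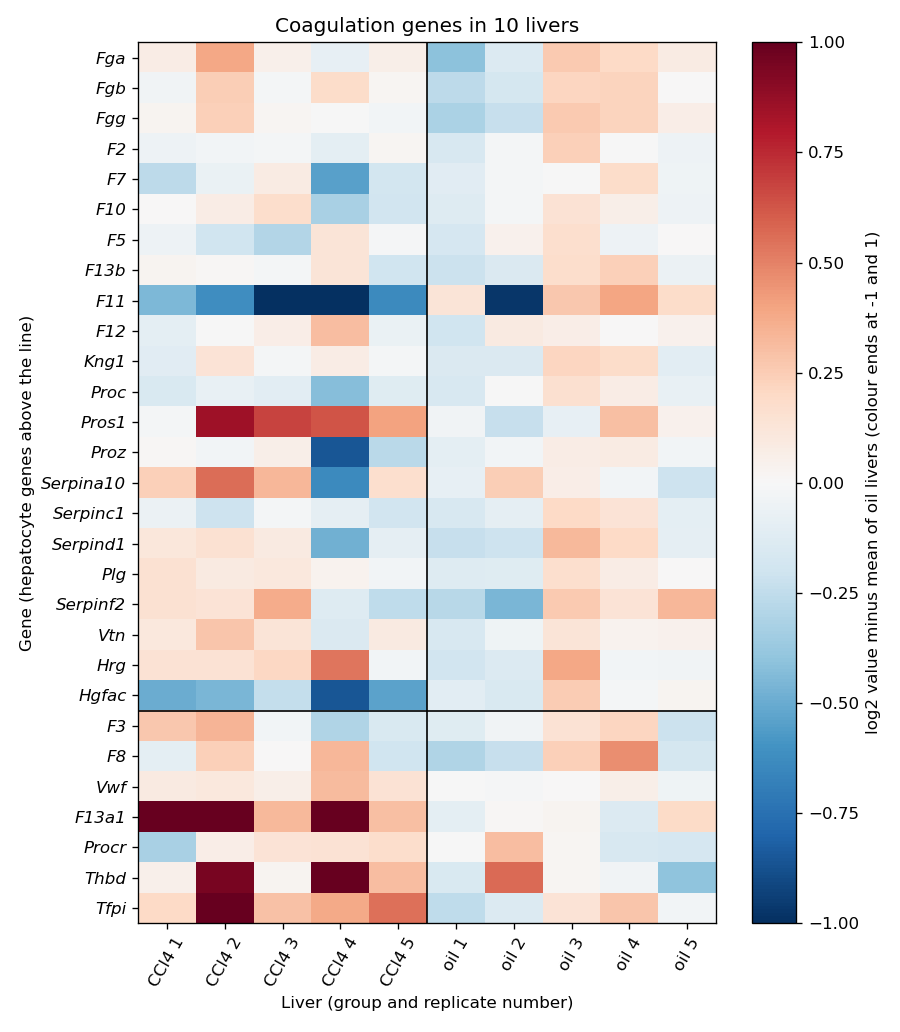
Level of 29 coagulation genes (rows) in 10 livers (columns) as the log2 value minus the mean of the 5 oil livers, with red above and blue below and colours ending at -1 and 1. Oil replicates 1 and 2 are pale blue across much of the hepatocyte block, CCl4 replicate 4 mixes dark blue and red, and F11 and Hgfac are blue in all CCl4 livers.

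The spread of the hepatocyte genes between livers of a group was set against that of the other group. The SD was larger in CCl4 livers for 12 of 22, with medians of 0.17 in CCl4 and 0.16 in oil livers, where the median absolute difference between the groups was 0.09. Oil replicates 1 and 2 both lay below the other 3 oil livers for 12 of the 22 genes, among them the fibrinogen chains, Plg, Vtn and Hrg, and above them for 0. Oil replicate 1 had the lowest level of all 10 livers for 10 genes, and oil replicate 3 the highest for 9. The shares of all probe sets with these patterns were not computed, so these counts do not set the hepatocyte genes apart. Oil replicates 1 and 2 were also apart in clock genes. Dbp was 8.39 and 7.77 there against 3.42 to 4.04 in the other oil livers. Arntl was 3.14 and 3.41 against 5.38 to 6.08. CCl4 replicates 1 and 2 had Dbp of 8.72 and 8.08, and there all 3 fibrinogen chains lay above their levels in oil replicates 1 and 2. In replicates 3 to 5 the order was the reverse for Fga and Fgg, and Fgb overlapped. There Fga was 11.97 to 12.11 in CCl4 and 12.14 to 12.32 in oil livers, and Fgg 12.10 to 12.14 against 12.19 to 12.38. Dbp was 5.74 to 6.31 in these CCl4 livers. This split by replicate number was chosen after seeing the values, and each part holds only 2 or 3 livers per group. Whether the groups differ in their relation to the clock genes was not tested. The part of the clock genes in these differences was not tested beyond the covariate fit, which assumes the same slope in both groups. With Arntl minus Dbp as a covariate in the fit, the differences of Fga, Fgb and Fgg were 0.16, 0.15 and 0.13, with limma adjusted p from 0.627 to 0.734, and 0 of the 29 genes passed.

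CCl4 replicate 4 had the lowest level of the 10 livers for 8 of the 22 hepatocyte genes, namely F7, F10, F11, Proc, Proz, Serpina10, Serpind1 and Hgfac. It had the highest for F12 and Hrg. CCl4 replicate 2 had the highest level for 5, namely Fga, Fgb, Pros1, Serpina10 and Vtn. How often these livers were lowest or highest over all probe sets was not computed. Without CCl4 replicate 4, F11 was at -0.83 and Hgfac at -0.43, and both kept an unadjusted limma p under 0.05.

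Other genes of clotting and fibrinolysis were taken from a list of 25, of which 19 were measured. Of the 19, 1 rose, Anxa2, and 0 fell at the adjusted threshold, where 0.63% of all probe sets were higher and 0.09% lower. At an unadjusted limma p under 0.05, 7 of the 19 were higher, where 7.03% of all probe sets were. At the same threshold 1 was lower, where 4.27% were. The list was chosen with earlier results of these data known, so these shares cannot set it apart from the rest of the array. Anxa2 encodes annexin A2, which binds plasminogen and its activator on cell surfaces. It was 5.34, 6.60, 4.82, 5.05 and 4.73 in CCl4 livers and 3.74, 3.33, 3.54, 3.96 and 3.36 in oil livers, with no overlap and CCl4 replicate 2 highest. The difference was 1.72 ± 0.32 (SE, limma adjusted p = 0.0444). Over 18 alternatives it lay between 1.40 and 1.87 and passed in 7, with adjusted p from 0.0102 to 0.147. It did not pass without CCl4 replicate 1, 3 or 4 or without any 1 of the 5 oil livers, where the adjusted p lay between 0.0572 and 0.136, nor with the clock covariate (0.100), the replicate block (0.123) or the methods' t-test (0.147). Its partner S100a10 differed by 0.42 (limma adjusted p = 0.774).

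The measured genes of plasminogen activation had positive differences in 4 of 4. Plat (tissue plasminogen activator) was 2.86, 3.58, 2.75, 2.99 and 2.97 in CCl4 livers and 2.61, 2.60, 2.52, 2.41 and 2.48 in oil livers, without overlap, a difference of 0.50 ± 0.14 (SE, limma adjusted p = 0.162). Plau (urokinase) was at 1.10 and its receptor Plaur at 0.58, both highest in CCl4 replicate 2, at 4.74 and 3.59. Without that liver they were at 0.63 and 0.32. Serpinb2 (plasminogen activator inhibitor type 2) was at 0.25. The limma adjusted p of Plau, Plaur and Serpinb2 lay between 0.153 and 0.422.

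F2r, which encodes the thrombin receptor PAR1, was 6.39, 7.28, 6.31, 6.78 and 6.35 in CCl4 livers and 5.55, 5.39, 5.67, 6.37 and 5.78 in oil livers. Oil replicate 4 alone reached into the CCl4 range. The difference was 0.87 ± 0.23 (SE, limma adjusted p = 0.130). F2rl2 and F2rl3, the genes of PAR3 and PAR4, were at 0.03 and -0.03. Their probe sets were dim, with group means of 2.01 to 2.04 for F2rl2 and 1.55 to 1.58 for F2rl3. The median of all probe sets was 2.58, so a change of either gene may be understated. Thbs1 (thrombospondin 1, a platelet and matrix protein) was 2.89, 4.44, 2.60, 4.40 and 4.40 in CCl4 livers against 2.30 to 2.43 in oil livers. Its difference was 1.41 ± 0.37 (SE, limma adjusted p = 0.130), and it passed in 1 of 18 alternatives, without CCl4 replicate 3 (adjusted p = 0.0499).

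Ggcx, the carboxylase that modifies the vitamin K-dependent factors, was the 1 gene of the 19 that was lower at an unadjusted limma p under 0.05, while 8 of the 19 had negative differences. It was 7.88, 8.01, 8.08, 6.96 and 7.98 in CCl4 livers and 8.09, 8.18, 8.46, 8.43 and 8.63 in oil livers, without overlap and with CCl4 replicate 4 far below the rest. The difference was -0.58 ± 0.21 (SE, limma adjusted p = 0.310), and -0.37 without that liver. Lman1 and Mcfd2, which form the receptor that carries factors V and VIII out of the endoplasmic reticulum, were at -0.15 and -0.05.

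**Figure D4:**
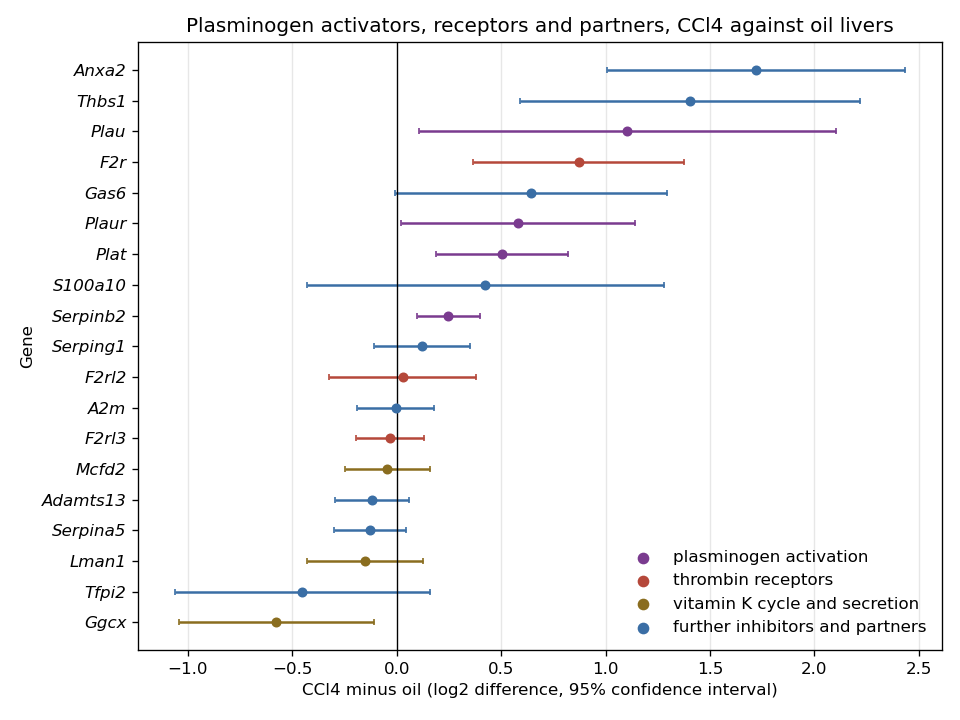
Difference between CCl4 and oil livers (x axis, log2, points with 95% confidence intervals, n = 5 livers per group) for 19 further genes of clotting and fibrinolysis (y axis), coloured by role. Anxa2 at 1.72 and Thbs1 at 1.41 lie farthest to the right, all 4 genes of plasminogen activation lie above 0, and Ggcx at -0.58 lies farthest to the left.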

How the data were processed

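Whole liver RNA of 10 mice, 5 per group, was measured on Affymetrix arrays of the whole-transcript type, named Mouse Exon 1.0 ST in the series text and Mouse Gene ST 1.0 in the study's methods. The authors deposited 1 log2 value per probe set and array for 23332 probe sets, a scale inferred from the largest value, 13.4, which is below the log2 of a 16-bit maximum (16). The methods name GenePix for the images, and normalization and summarisation are not given in the sources used here. No detection calls were used, so signal over background is unknown, and precision is limited by how many arrays there are. The 10 columns differed in values in all 45 pairs.

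Genes came from GEO's platform table, which gave 1 symbol for 14996 probe sets, several for 1019 and none for 7317. RefSeq (GRCm38.p6) changed 0 of the members' symbols and gave the sequences and coordinates. The deposited values were fitted with limma 3.58.1 in R 4.3.3 (lmFit, eBayes; CCl4 against oil, no covariate), and p-values were adjusted by Benjamini-Hochberg across the 23332 probe sets. The fit was tested on simulated data first. The members, lists and tests were chosen with earlier results of these data known. Values of every array are given for members with an unadjusted p under 0.05, without overlap between groups, with the 3 largest differences in each class, and for fibrinogen, F2 and Vwf. For the further genes of the pathway, values of every array are given for a part of those at that p. Alternatives were quantile normalization, median centring, the replicate block, array weights, the mean of all probe sets of a gene, brighter probe sets only, the methods' t-test, a clock covariate and leaving out each array.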

Additional observations from a re-analysis of the deposited data

Results flagged for a closer look

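Within each group of 5 livers, a liver was marked when its gap to the nearest other exceeded 0.71 of the range of the group. Of 58 combinations of gene and group 5 were marked, where chance marks about 1 in 20. Fgg was 12.36 in CCl4 replicate 2 against 12.10 to 12.15 in the other CCl4 livers. Proc was 9.89 in CCl4 replicate 4 against 10.15 to 10.23, and Procr was 1.41 in CCl4 replicate 1 against 1.80 to 1.91. F11 was 7.88 in oil replicate 2 against 8.98 to 9.25 in the other oil livers, and without that liver the F11 difference was -1.36. Hrg was 10.99 in oil replicate 3 against 10.41 to 10.58 in the other oil livers.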

How the results depend on the processing

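Over 18 alternatives 0 of the 29 genes passed the adjusted threshold, and 17 kept their direction throughout, among them F11, Hgfac, Pros1, F13a1, Tfpi, Thbd and Vwf. The other 12 had differences of at most 0.10 in size. With median centring Fgg was at -0.0069, F12 at -0.018, Kng1 at -0.045, Serpinf2 at -0.0041, F3 at -0.033, F8 at -0.0026 and Procr at -0.017. With array quality weights F12 was at -0.013, Kng1 at -0.0096 and F8 at -0.0034. With quantile normalization F13b was at 0.037 and F3 at -0.021, and with the clock covariate F13b was at 0.047 and F3 at -0.0076. With 1 array left out the range was -0.11 to 0.017 for F10, -0.027 to 0.075 for F12, -0.065 to 0.047 for F13b, -0.074 to 0.025 for F2, -0.053 to 0.11 for F3, -0.020 to 0.17 for F8, -0.0052 to 0.16 for Fga, -0.029 to 0.12 for Fgg, -0.024 to 0.065 for Kng1, -0.0016 to 0.13 for Procr, -0.10 to 0.064 for Serpind1 and -0.060 to 0.14 for Serpinf2. Among the brighter probe sets, which leave out F13a1, F3 and Procr, 0 genes were higher at the methods' threshold in place of 1, and the median of the vascular and other genes was 0.32 in place of 0.14. The counts at an unadjusted p under 0.05, added after seeing the data, lay between 2 and 4 higher and 2 and 3 lower. With the replicate block 0 members passed and 4 were higher at an unadjusted p under 0.05, and over all probe sets 36 were called in place of 168. Same-numbered livers correlated at -0.043 to 0.16 in their deviations from the group means, and 2 of 5 CCl4 livers correlated best with their own number. With 5 livers per group this cannot decide whether the numbers pair the livers. Arntl minus Dbp was -5.56 and -4.86 in CCl4 replicates 1 and 2 and -5.25 and -4.35 in oil replicates 1 and 2. It was -1.61 to 0.31 in the other CCl4 livers and 1.96 to 2.62 in the other oil livers. A shared origin of same-numbered livers was not tested further. The dim probe sets of the vascular genes limit what can be seen.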

Other observations

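Transcription factors that drive hepatocyte genes were measured as values only. Hnf4a was at 0.11, Cebpa at -0.05 and Foxa2 at -0.06, with limma adjusted p from 0.904 to 0.973. Cebpa was 6.46 in CCl4 replicate 4, the lowest of the 10 livers, where the remaining CCl4 livers spanned 7.20 to 7.86, and Hnf4a was 9.90 there, the highest of the 10.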
